A study of Mus musculus with 57 samples.

Results

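Integrins are surface receptors built from 1 alpha and 1 beta subunit, with which a cell holds on to matrix and to other cells. The 10 subunit genes described here were chosen by name, as those that mark or are used by liver macrophages and blood monocytes. Earlier results of these data were known when they were chosen. The alpha subunits are Itgam, Itgax, Itgal, Itga4, Itga6, Itga9 and Itgav, and the beta subunits are Itgb1, Itgb2 and Itgb5. They are 10 of the 24941 genes in the deposited tables, and all 10 passed the filter on low counts in each of the 4 sets of libraries described below.

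An integrin reaches the cell surface as a pair, and the alpha subunit largely decides which ligand the pair can bind. Itgb2 makes the leukocyte integrins: its alpha partners are Itgal (CD11a, which binds the ICAM adhesion molecules), Itgam (CD11b, which binds complement fragments and fibrinogen), Itgax (CD11c, also a complement receptor and in common use as a marker of dendritic cells) and Itgad. Itgb1 pairs with Itga4, Itga6, Itga9 and others, and Itgb5 pairs with Itgav. Kupffer cells are the resident macrophages of the liver sinusoids, and monocytes that leave the blood use integrins to stop on the vessel wall and to settle in the tissue.

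The study used RNA-seq of mouse liver macrophages in diet-induced non-alcoholic steatohepatitis (NASH), with 57 libraries in 16 groups. The first set, from C57BL/6J mice, holds 2 libraries of each of 6 sorted populations. Of these, 5 came from mice on a NASH diet whose length the labels do not give for them: Kupffer cells (KC, gated F4/80-Hi and Tim4-Pos), Kupffer-niche recruited macrophages (KN-RM, gated F4/80-Hi and Tim4-Neg), recruited macrophages (RM) gated CD11b-Hi and either Ly6C-Lo or Ly6C-Hi, and Ly6C-high blood monocytes. The sixth was Tim4-Pos KC from mice on a control diet, called healthy KC here. The second set followed KC of C57BL/6J mice after 1, 4, 10, 20 and 30 weeks of NASH diet, with 2, 2, 3, 3 and 4 libraries, against 3 libraries of KC from mice on the control diet (week 0). The third set was of KN-RM after 20 weeks of NASH diet from mice whose LXR-alpha and LXR-beta alleles were floxed, 3 libraries with Clec4f-cre and 3 without Cre. Clec4f is a Kupffer-lineage gene, so the Cre acts in that lineage and not in blood monocytes. The fourth set was whole liver after 4 weeks of the choline-deficient diet CDAHFD, with 12 libraries positive and 10 negative for Clec4f-cre DTR (diphtheria toxin receptor); the labels do not say whether toxin was given. The labels do not say that the libraries of a group came from separate mice, so each p-value is set by the spread among these libraries, which may be technical. A level in sorted or whole tissue is a mean over its cells, and fewer expressing cells cannot be told apart from less RNA per cell.

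The promoter windows of Itgam and Itgax are printed. These neighbouring genes encode partners of Itgb2 and differed widely in pattern across the sorted cells, where CD11b, the Itgam product, set some of the gates. Both lie on the plus strand of chromosome 7 (mm10), Itgam at chr7:128062640-128118491 and Itgax at chr7:128129568-128150657, and Itgal lies on the same strand at chr7:127296260-127335137. Each window runs from 250 bases before to 50 bases after the start that the RefSeq table (GRCm38.p6) gives, which for Itgax lies slightly upstream of the start of the transcript counted. The windows are on the plus strand, at chr7:128062390-128062689 for Itgam and chr7:128129300-128129599 for Itgax. Capitals mark the core sequence of PU.1, a myeloid transcription factor, searched as GAGGAA on either strand (TTCCTC on the strand printed).
Itgam: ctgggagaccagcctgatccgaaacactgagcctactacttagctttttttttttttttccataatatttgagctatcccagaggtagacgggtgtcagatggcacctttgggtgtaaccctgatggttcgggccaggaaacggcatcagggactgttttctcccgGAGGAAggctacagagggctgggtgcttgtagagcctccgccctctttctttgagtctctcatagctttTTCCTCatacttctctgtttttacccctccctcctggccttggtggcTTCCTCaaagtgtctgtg
Itgax: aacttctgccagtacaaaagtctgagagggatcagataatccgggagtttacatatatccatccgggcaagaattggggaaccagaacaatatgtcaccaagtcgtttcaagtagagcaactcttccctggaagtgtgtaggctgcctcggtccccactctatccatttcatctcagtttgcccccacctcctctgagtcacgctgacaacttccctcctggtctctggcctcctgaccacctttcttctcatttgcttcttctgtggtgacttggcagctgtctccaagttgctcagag
The Itgam window holds the core 3 times and the Itgax window holds it 0 times. The table has a window for 7 of the 10 genes, but that of Itga9 lies inside the transcript counted, at the start of a shorter one, and was left aside. Of the other 6, Itgam had 3 matches, Itgav 2 and Itgb1 1, and Itgax, Itga4 and Itgb5 had 0. Of all 32851 windows of 300 bases in the table, 28.3% held at least 1 match and 4.82% held 2 or more. A match is a description of the letters, and no match says only that the core is not in this window.

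Total counts per library ran between 12368140 and 22707571 for sorted populations and between 10483452 and 26969509 over the time course. The LXR libraries were shallower (2319383 to 5086239), as were those of whole liver (5389957 to 9941477). Values below are CPM, counts scaled to the library's total and corrected by TMM factors, unless TPM, the authors' length-corrected unit, is named. A call means an adjusted p under 0.05 in edgeR's quasi-likelihood test, with Benjamini-Hochberg adjustment over all genes of the set. Where groups are said to stand apart or not to overlap, the share of all genes that do so was not counted. Such a statement describes the values and is no test. The sorts were checked against Kupffer-cell genes. Clec4f, a Kupffer-cell lectin, stood at 4603 to 6584 CPM in NASH KC and 2669 to 3315 CPM in KN-RM, against 0 and 0.163 CPM in blood monocytes. Timd4, which encodes the Tim4 used in the gate, stood at 5.48 and 12.6 CPM in KN-RM, against 164 and 263 CPM in NASH KC.

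In NASH KC, 5 of the 10 integrin genes differed from healthy KC: 4 rose and 1 fell. Of all 14407 genes tested, 20.7% were called, 11.2% higher and 9.56% lower. The steepest change was in Itgax, which healthy KC held at a low level, and Itga6 followed it. Among the partners of Itgb2, Itgax stood at 329 and 474 CPM in NASH KC, against 9.91 and 9.55 CPM in healthy KC. Both NASH libraries lay far above both healthy libraries, with a log2 change of 5.37 ± 0.24 (SE), or 41.3-fold (adjusted p = 4.69e-07). Itgal ran the other way, with 1432 and 1446 CPM in NASH KC, against 2493 and 2075 CPM in healthy KC. The groups did not overlap, and Itgal fell by 0.67 ± 0.17 on the log2 scale (adjusted p = 0.0206). Itgam was measured at 134 and 224 CPM in NASH KC and at 185 and 168 CPM in healthy KC, so the groups overlapped (log2 0.02, adjusted p = 0.970). Thus 1 partner of Itgb2 was higher, 1 was lower, and for Itgam no difference was detected.

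Among the other alpha subunits, Itga6, a laminin receptor chain, stood at 27.6 and 43.9 CPM in NASH KC, against 1.58 and 2.01 CPM in healthy KC (log2 4.32 ± 0.35, 20.0-fold, adjusted p = 2.00e-05). Itga6 was thus low in healthy KC and clearly measured in both NASH libraries, which lay above both healthy ones. Itgav, the alpha chain of several receptors for vitronectin and of receptors that activate latent TGF-beta, had 367 and 418 CPM in NASH KC and 290 and 245 CPM in healthy KC. The groups did not overlap and the call was narrowly missed (log2 0.55 ± 0.18, adjusted p = 0.0530). DESeq2 called Itgav higher (adjusted p = 0.0328). So did edgeR with no filter on low counts (adjusted p = 0.0157), with the replicate number in the fit (0.0234) and with the 2 groups alone (0.0430). Limma on the TPM scale did not call Itgav. Itga9, a receptor chain for tenascin-C and osteopontin, had 633 and 690 CPM in NASH KC and 671 and 1001 CPM in healthy KC (log2 -0.34, adjusted p = 0.162). Itga4, which with Itgb1 binds VCAM-1 and fibronectin, had 147 and 153 CPM in NASH KC and 155 and 171 CPM in healthy KC (log2 -0.12, adjusted p = 0.671).

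Of the beta subunits, Itgb2 stood at 695 and 1006 CPM in NASH KC, against 450 and 512 CPM in healthy KC (log2 0.82 ± 0.22, 1.77-fold, adjusted p = 0.0254). Itgb5 stood at 1021 and 1335 CPM in NASH KC, against 646 and 888 CPM in healthy KC (log2 0.62 ± 0.18, 1.54-fold, adjusted p = 0.0367). Neither gene's groups overlapped. Itgb1 had 501 and 548 CPM in NASH KC and 596 and 598 CPM in healthy KC (log2 -0.19, adjusted p = 0.447). The calls on the smaller changes each ended when some single libraries were left out, which leaves 1 library in a group. Some of the log2 changes then shrank and others did not. The Itgb2 call ended without replicate 1 or 2 of healthy KC or replicate 2 of NASH KC (log2 0.51 to 0.92, adjusted p 0.0691 to 0.247). The Itgb5 call ended without healthy KC replicate 1 or NASH KC replicate 2 (log2 0.41 and 0.39), and Itgal's call ended without healthy KC replicate 1 or either NASH KC replicate (adjusted p 0.0853 to 0.108). Without healthy KC replicate 1, Itga9 was called lower (log2 -0.59, adjusted p = 0.0127). On the TPM scale, the calls on Itgb2 and Itgb5 ended (limma adjusted p = 0.0716 and 0.110). Limma on log2(TPM + 1) called Itga9 lower (log2 -0.52, adjusted p = 0.0417), but not on log2(TPM + 0.1) or with no filter. The Itgax and Itga6 calls held without each library in turn. Summed dendritic-cell markers were 44.8 to 46.0 CPM in NASH KC, against 68.1 to 79.4 CPM in healthy KC, with 1 of 7 called higher and 1 lower. Summed markers of T and NK cells were 17.8 to 27.7 CPM in NASH KC, against 6.50 to 7.31 CPM in healthy KC, with 5 of the 7 tested called higher. Of 8 markers of sinusoidal endothelium, 7 were lower (summed 1713 to 1817 CPM in NASH KC, against 2954 to 2970 CPM in healthy KC), and 2 of 7 Kupffer-cell markers were lower. The part of these shifts in the integrin levels was not tested.

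**Figure D1:**
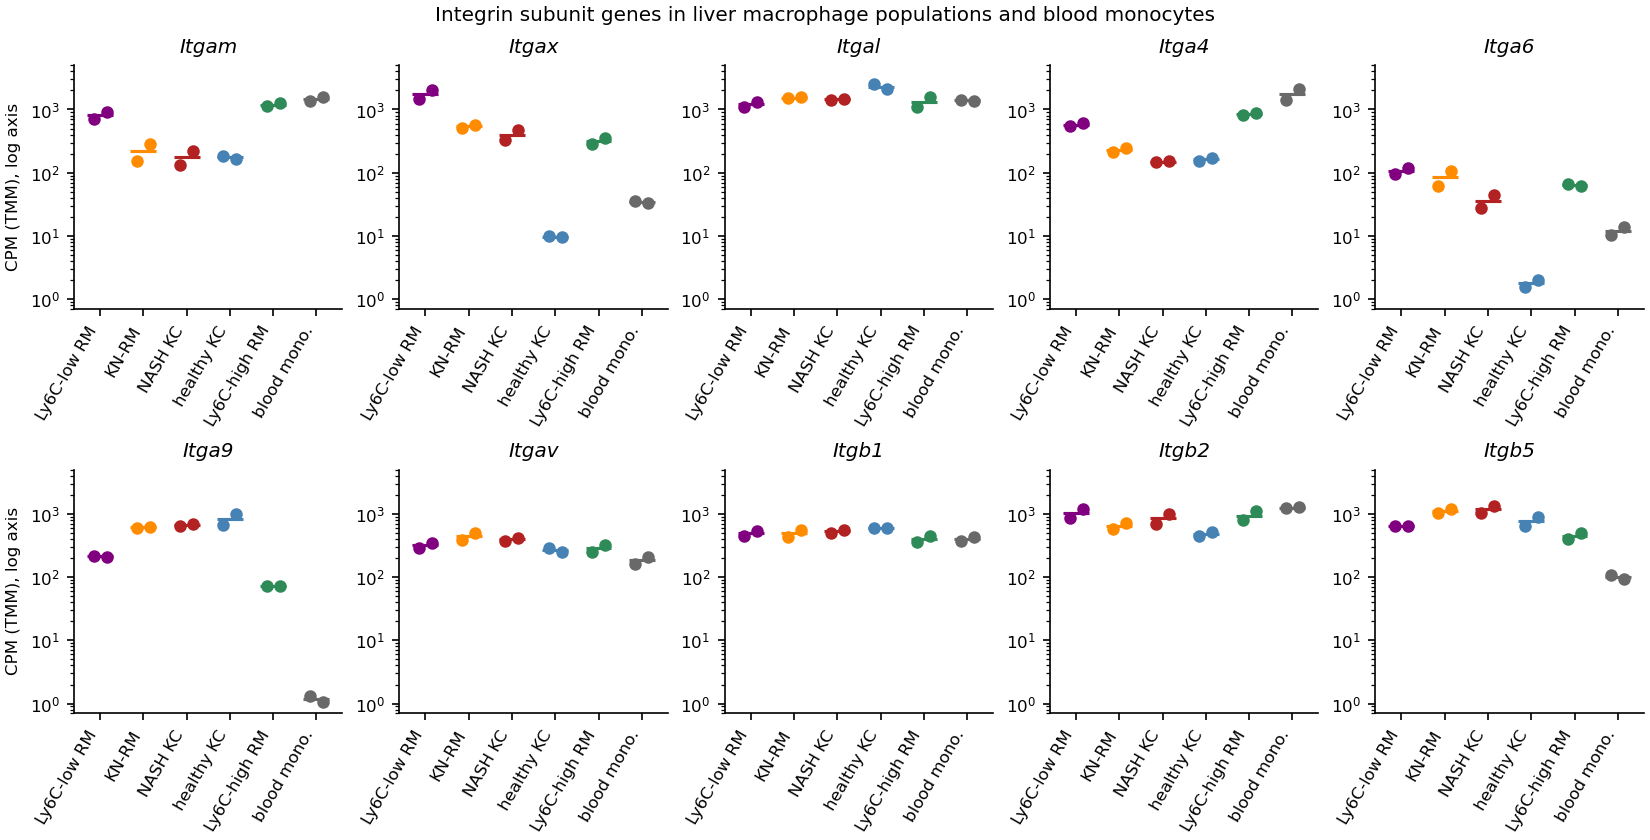
CPM after TMM scaling (log axis) of the 10 integrin genes in the 6 sorted populations, 2 libraries each; points are libraries and lines are group means. Itgax runs from 9.55 CPM in healthy KC to 2024 CPM in Ly6C-low RM, while Itgb1 keeps between 354 and 598 CPM in all 12 libraries.

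The time course asked when these levels moved. All 5 diet times were compared with the same 3 week 0 libraries, so their changes share those values. Itgax stood at 18.2, 9.72 and 22.8 CPM at week 0, at 27.3 and 36.4 CPM at week 1, and at 61.9 and 12 CPM at week 4. It had 110, 66.8 and 12.7 CPM at week 10, then 556, 263 and 596 CPM at week 20 and 716, 412, 549 and 614 CPM at week 30. Week 4 and week 10 each held a library within the week 0 range, whereas every library of weeks 20 and 30 lay above every earlier one. Itga6 stood at 7.23, 3.80 and 6.42 CPM at week 0 and between 3.01 and 6.25 CPM at weeks 1 and 4. Itga6 had 9.48, 6.97 and 11.4 CPM at week 10, 25.4, 13.8 and 24.9 CPM at week 20, and 61.3, 26.0, 28.5 and 51.3 CPM at week 30. Its libraries of weeks 20 and 30 likewise lay above those of every earlier time.

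At week 30, 5 of the 10 rose and 1 fell against week 0, where 30.5% of all 14552 genes tested were called (15.5% higher, 15.0% lower). The changes were log2 5.08 ± 0.68 for Itgax (573 ± 127 CPM at week 30, against 16.9 ± 6.63 CPM at week 0; SD, n = 4 and 3; adjusted p = 4.52e-05) and 2.84 ± 0.36 for Itga6 (adjusted p = 2.55e-05). Itgb5 rose by 1.18 ± 0.15 to 1047 ± 57.1 CPM at week 30, against 461 ± 73.4 CPM at week 0 (adjusted p = 2.10e-05). Itgb2 rose by 0.67 ± 0.12, with 976, 1024, 1001 and 797 CPM at week 30, against 545, 587 and 658 CPM at week 0 (adjusted p = 0.000797). The groups of all 4 of these genes stood apart. Itgam had 197, 266, 217 and 220 CPM at week 30, against 118, 78.6 and 151 CPM at week 0 (log2 0.96 ± 0.34, adjusted p = 0.0404). Itga4 had 189, 156, 185 and 172 CPM at week 30, against 284, 190 and 235 CPM at week 0 (log2 -0.43 ± 0.14, adjusted p = 0.0263). Both groups stood apart by little: the Itgam call ended without week 0 replicate 1 or 2 or week 30 replicate 2, 3 or 4 (adjusted p 0.0596 to 0.159), and on the TPM scale (limma, adjusted p = 0.128). The Itga4 call ended without week 0 replicate 1 or 3 or week 30 replicate 2 or 4 (adjusted p 0.0594 to 0.160).

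The remaining alpha subunits and Itgb1 missed the call at week 30. Itgal had log2 -0.33 (adjusted p = 0.0688), Itga9 -0.43 (0.0967) and Itgb1 -0.21 (0.189). On the TPM scale, where the median of all genes moved by -0.28, Itgal (-0.64), Itga9 (-0.71) and Itgb1 (-0.51) were called lower. Without week 0 replicate 2, Itgal (log2 -0.44) and Itga9 (-0.58) were called lower as well. Itgav overlapped between the groups, with 440, 292, 337 and 376 CPM at week 30 and 458, 272 and 372 CPM at week 0.

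At week 20, 4 of the 10 rose and 0 fell (34.7% of all genes called, 18.2% higher and 16.6% lower). They were Itgax (log2 4.80 ± 0.68, adjusted p = 8.64e-05), Itga6 (1.87 ± 0.36, adjusted p = 0.000982), Itgb5 (1.24 ± 0.15, adjusted p = 2.50e-05) and Itgb2 (0.58 ± 0.13, adjusted p = 0.00320). The groups overlapped in Itgam (log2 0.60, adjusted p = 0.195), Itgal (-0.10), Itga4 (-0.17), Itga9 (0.06), Itgav (0.25) and Itgb1 (-0.16). Limma on the TPM scale called Itgb1 lower (log2 -0.40, adjusted p = 0.0262). Itgax, Itga6, Itgb5 and Itgb2 had each risen in NASH KC of the population set too, in other libraries on both sides.

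Before week 20 the calls were few. At week 1, 0 of the 10 were called by edgeR (16.0% of all genes, 9.42% higher and 6.56% lower). Of the 10, 3 had an unadjusted p under 0.05, beside 4270 of all 14552 genes. DESeq2 called 1, Itgb5 (log2 0.47). Without week 0 replicate 3, edgeR called Itgb5 higher (log2 0.58), and without week 0 replicate 2 it called Itgav lower (log2 -0.66). Limma on the TPM scale instead called Itgal (-0.58), Itgav (-0.68) and Itgb2 (-0.51) lower, with the median of all genes at -0.21. At week 4, 1 was called (8.54% of all genes, 5.55% higher and 2.99% lower), Itgb5, with 780 and 581 CPM at week 4, against 384, 468 and 531 CPM at week 0 (log2 0.56 ± 0.17, adjusted p = 0.0474). That call ended without week 0 replicate 1 or 2 or week 4 replicate 1 (log2 0.45, 0.57 and 0.32), and on the TPM scale (limma, log2 0.39, adjusted p = 0.0742). Itgam split at week 4, with 109 CPM in replicate 1 and 418 CPM in replicate 2, and its log2 change was 1.83 when replicate 1 was left out. With all libraries the main fit did not call Itgam. DESeq2 called it higher (log2 1.19, adjusted p = 0.0233), as did edgeR with no filter on low counts (log2 1.17, adjusted p = 0.0401). Summed hepatocyte markers were 3005 to 4315 CPM at week 1 and 1399 to 1870 CPM at week 4, against 42.2 to 133 CPM at week 0; their part in the early values was not tested.

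At week 10, 1 of the 10 rose and 1 fell (19.1% of all genes called, 11.5% higher and 7.63% lower). Itgax was called higher although its groups overlapped (log2 1.90 ± 0.61, adjusted p = 0.0408). Itgb2 had 482, 424 and 458 CPM at week 10, against 545, 587 and 658 CPM at week 0, a log2 change of -0.39 ± 0.13 (adjusted p = 0.0471). Neither call held without each library in turn. Itgax ended without any 1 of the 3 week 0 libraries or week 10 replicate 1 or 2 (log2 1.23 to 2.16, adjusted p 0.0646 to 0.202), and on the TPM scale (limma, adjusted p = 0.137). Itgb2 ended without week 0 replicate 2 or 3 or any 1 of the 3 week 10 libraries (adjusted p 0.0674 to 0.167). It also ended in edgeR with no filter on low counts (adjusted p = 0.0611). Limma on the TPM scale kept the Itgb2 call, as did edgeR with the replicate number in the fit. Itgb1 missed the call (log2 0.35, adjusted p = 0.0642) and was called higher without week 0 replicate 1 (log2 0.46). DESeq2 called Itgb1 higher with all libraries (log2 0.35, adjusted p = 0.0347). Of 7 hepatocyte markers, 7 were higher at week 10 (summed 557 to 2723 CPM, against 42.2 to 133 CPM at week 0), and their part in these values was not tested.

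Week 20 was set directly against week 10, a contrast chosen after the values had been seen, and 6 of the 10 were called (41.1% of all genes, 20.4% higher and 20.7% lower). The 4 higher at week 20 were Itgax (472 ± 182 CPM at week 20, against 63.1 ± 48.6 CPM at week 10; SD, n = 3 each; adjusted p = 0.00164), Itga6 (adjusted p = 0.0128), Itgb2 (892 ± 91.5 CPM at week 20, against 455 ± 29.3 CPM at week 10; adjusted p = 4.32e-05) and Itgb5 (adjusted p = 9.87e-05). Lower at week 20 were Itgb1 (582 ± 37.5 CPM at week 20, against 826 ± 22.9 CPM at week 10; adjusted p = 0.00491) and Itga4 (210 ± 18.2 CPM at week 20, against 284 ± 34.8 CPM at week 10; adjusted p = 0.0256). The Itga4 call ended without week 10 replicate 1 or 3 or week 20 replicate 2 or 3 (adjusted p 0.0647 to 0.0968). The Itga6 call ended without week 10 replicate 2 (adjusted p = 0.0565) and on the TPM scale (limma, adjusted p = 0.0547). In this contrast 5 of 7 hepatocyte, 5 of 8 endothelial and 3 of 7 Kupffer-cell markers were lower at week 20, and 0 were higher. Summed hepatocyte markers were 152 to 831 CPM at week 20, against 557 to 2723 CPM at week 10. The part of these shifts in the integrin levels was not tested.

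Timd4, the gate gene, stood at 775, 852 and 916 CPM at week 0, at 141, 429 and 112 CPM at week 20 and at 79.9, 288, 159 and 108 CPM at week 30. Clec4f stood at 3110, 4717, 4448 and 3715 CPM at week 30, against 6559, 10384 and 10533 CPM at week 0. Of 7 Kupffer-cell markers, 5 were lower at week 20 and 4 at week 30 than at week 0. Of 8 endothelial markers, 5 were lower at week 20 and 6 at week 30, and of 8 stellate-cell markers 5 and 6 were higher. Of 7 hepatocyte markers, 5 were higher at week 20 and 6 at week 30. Within week 20, the library with the lowest Itgax (263 CPM) had the highest Timd4 (429 CPM), and within week 30 likewise (412 and 288 CPM). Dendritic-cell markers summed to 59.9 to 66.3 CPM at week 30, against 93.3 to 110 CPM at week 0, with 0 of 7 called higher and 1 lower. The part of all these shifts in the integrin levels was not tested.

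**Figure D2:**
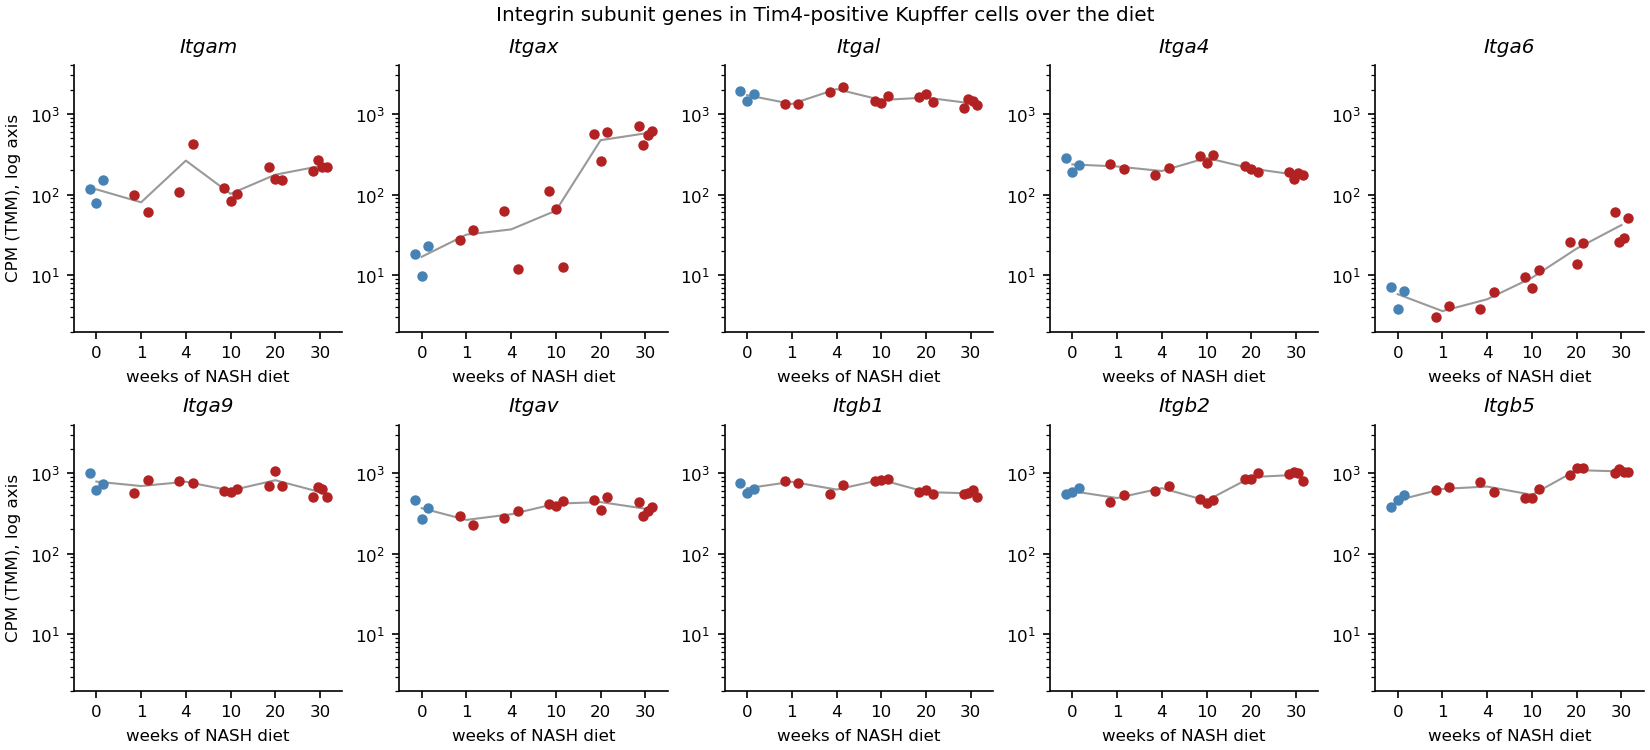
CPM after TMM scaling (log axis) of the 10 integrin genes in Kupffer cells at 0, 1, 4, 10, 20 and 30 weeks of NASH diet; points are libraries and lines join the group means. Itgax, Itga6, Itgb2 and Itgb5 are higher at weeks 20 and 30 than at week 10.

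Recruited macrophages were compared with Ly6C-high blood monocytes to ask which subunits differ once such cells are in the liver. In KN-RM, 5 of the 10 rose and 3 fell against blood monocytes, beside 60.4% of all genes called (34.0% higher, 26.5% lower). Itga9 was nearly absent from blood, with 596 and 621 CPM in KN-RM, against 1.33 and 1.06 CPM in blood monocytes (log2 8.95 ± 0.25, 496-fold, adjusted p = 7.93e-10). Itgax had 512 and 567 CPM in KN-RM, against 36.1 and 33.1 CPM in blood monocytes (log2 3.96 ± 0.22, adjusted p = 6.76e-08). Itgb5 had 1039 and 1184 CPM in KN-RM, against 107 and 94.3 CPM in blood monocytes (log2 3.46 ± 0.20, adjusted p = 1.03e-07). All 3 stood far apart between the groups. Itga6 (log2 2.83 ± 0.29, adjusted p = 8.46e-06) and Itgav (1.25 ± 0.18, adjusted p = 0.000152) were higher as well.

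Itga4 ran the other way, with 215 and 250 CPM in KN-RM, against 1416 and 2143 CPM in blood monocytes (log2 -2.94 ± 0.19, adjusted p = 2.02e-07). Itgb2 had 565 and 715 CPM in KN-RM, against 1244 and 1261 CPM in blood monocytes (log2 -0.97 ± 0.22, adjusted p = 0.00303). Itgam had 151 and 283 CPM in KN-RM, against 1352 and 1575 CPM in blood monocytes (log2 -2.75 ± 0.30, adjusted p = 1.42e-05). In all 3 the KN-RM libraries lay below the blood libraries. For Itgal (log2 0.13, adjusted p = 0.515) and Itgb1 (0.30, adjusted p = 0.131) no difference was detected, though Itgb1 was called higher without KN-RM replicate 1 (log2 0.50, adjusted p = 0.0437).

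In Ly6C-high RM, 5 of the 10 rose and 1 fell against the same blood libraries (48.6% of all genes called, 27.3% higher and 21.3% lower). Those that rose were Itga9, Itgax, Itgb5, Itga6 and Itgav. Itga9 had 71.4 and 71.7 CPM in Ly6C-high RM (log2 5.87 ± 0.23, adjusted p = 4.29e-08), Itgax 285 and 356 CPM (3.21 ± 0.21, adjusted p = 9.85e-07) and Itgb5 393 and 495 CPM (2.14 ± 0.19, adjusted p = 8.33e-06). Itga6 had a log2 change of 2.42 ± 0.29 (adjusted p = 5.87e-05) and Itgav one of 0.62 ± 0.18 (adjusted p = 0.0163). The Itgav call ended without blood replicate 1 or Ly6C-high RM replicate 2 (log2 0.44 in each, adjusted p = 0.128). Itga4 had 818 and 896 CPM in Ly6C-high RM, lower than in blood monocytes (log2 -1.05 ± 0.18, adjusted p = 0.000587). For Itgam (log2 -0.30, adjusted p = 0.396), Itgb2 (-0.42, adjusted p = 0.139), Itgal (-0.07) and Itgb1 (0.01) no call was made. Summed hepatocyte markers were 1393 to 3742 CPM in Ly6C-high RM, against 0 CPM for all 7 of them in blood monocytes. The liver cells went through enzymatic digestion and gradients before the sort, so tissue, handling and carried-over RNA cannot be told apart from recruitment in these 2 contrasts.

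The 2 recruited gates of CD11b-Hi cells were then compared. In Ly6C-low RM, 2 of the 10 rose and 1 fell against Ly6C-high RM (25.7% of all genes called, 11.6% higher and 14% lower). Itgax had 1483 and 2024 CPM in Ly6C-low RM, against 285 and 356 CPM in Ly6C-high RM (log2 2.45 ± 0.20, 5.47-fold, adjusted p = 1.97e-05). Itga9 had 218 and 210 CPM in Ly6C-low RM, against 71.4 and 71.7 CPM in Ly6C-high RM (log2 1.58 ± 0.17, adjusted p = 9.68e-05). Both genes' groups stood apart. Itga4 had 546 and 612 CPM in Ly6C-low RM, against 818 and 896 CPM in Ly6C-high RM (log2 -0.57 ± 0.17, adjusted p = 0.0348), a call that ended without any 1 of these 4 libraries (log2 -0.48 to -0.64, adjusted p 0.0662 to 0.194). Itga6 (log2 0.75, adjusted p = 0.0574) and Itgb5 (0.53, adjusted p = 0.0561) narrowly missed the call and were called by DESeq2 (adjusted p = 0.0457 and 0.0391). No call was made for Itgam (log2 -0.55, adjusted p = 0.175), Itgal (-0.15), Itgav (0.16), Itgb1 (0.29) or Itgb2 (0.12). Dendritic-cell markers summed to 440 to 479 CPM in Ly6C-low RM, against 86.1 to 102 CPM in Ly6C-high RM, with 6 of 7 called higher; their part in the Itgax level was not tested.

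Against KN-RM, Ly6C-low RM had 4 of the 10 higher and 2 lower (33.3% of all genes called, 15.3% higher and 18.1% lower). Itgam was among the higher ones, but CD11b, its product, set the gate, so that difference is no finding. Itgax was 3.25-fold higher in Ly6C-low RM (log2 1.70 ± 0.20, adjusted p = 8.54e-05), with both its libraries above both KN-RM libraries. Itga4 was 2.49-fold higher (log2 1.32 ± 0.18, adjusted p = 0.000250). Itgb2 had 853 and 1178 CPM in Ly6C-low RM, against 565 and 715 CPM in KN-RM (log2 0.67 ± 0.22, adjusted p = 0.0381), which ended without KN-RM replicate 1 (log2 0.53) or Ly6C-low RM replicate 2 (log2 0.42). Itga9 was lower (log2 -1.51 ± 0.16, adjusted p = 5.79e-05). Itgb5 had 646 and 636 CPM in Ly6C-low RM, against 1039 and 1184 CPM in KN-RM (log2 -0.79 ± 0.18, adjusted p = 0.00695), which limma on the TPM scale did not call (log2 -0.45, adjusted p = 0.0645). No call was made for Itgav (log2 -0.47, adjusted p = 0.0689), Itgal (-0.35, adjusted p = 0.134), Itga6 (0.34) or Itgb1 (-0.00). Dendritic-cell markers summed to 50.0 to 54.2 CPM in KN-RM, below the Ly6C-low RM range given above.

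KN-RM and NASH KC share the F4/80-Hi gate and differ in Tim4. In edgeR 0 of the 10 were called (0.534% of all genes, 0.333% higher and 0.201% lower), and limma on the TPM scale called 0. Of the 10, 3 had an unadjusted p under 0.05 in edgeR, beside 1311 of all 14407 genes. Itga6 had 61.8 and 108 CPM in KN-RM and 27.6 and 43.9 CPM in NASH KC (log2 1.24 ± 0.27, adjusted p = 0.0766). Itga4 had 215 and 250 CPM in KN-RM and 147 and 153 CPM in NASH KC (log2 0.63, adjusted p = 0.196). The libraries did not overlap in either gene, and DESeq2 called both (adjusted p = 0.00172 for Itga6 and 0.0472 for Itga4). With no filter on low counts, edgeR called both as well (adjusted p = 0.000627 for Itga6 and 0.0338 for Itga4). With the replicate number in the fit, edgeR called Itga6 (adjusted p = 0.00938). Itgax had 512 and 567 CPM in KN-RM and 329 and 474 CPM in NASH KC (log2 0.43, adjusted p = 0.543). The other 7, Itgam, Itgal, Itga9, Itgav, Itgb1, Itgb2 and Itgb5, had log2 differences of -0.41 to 0.28.

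**Figure D3:**
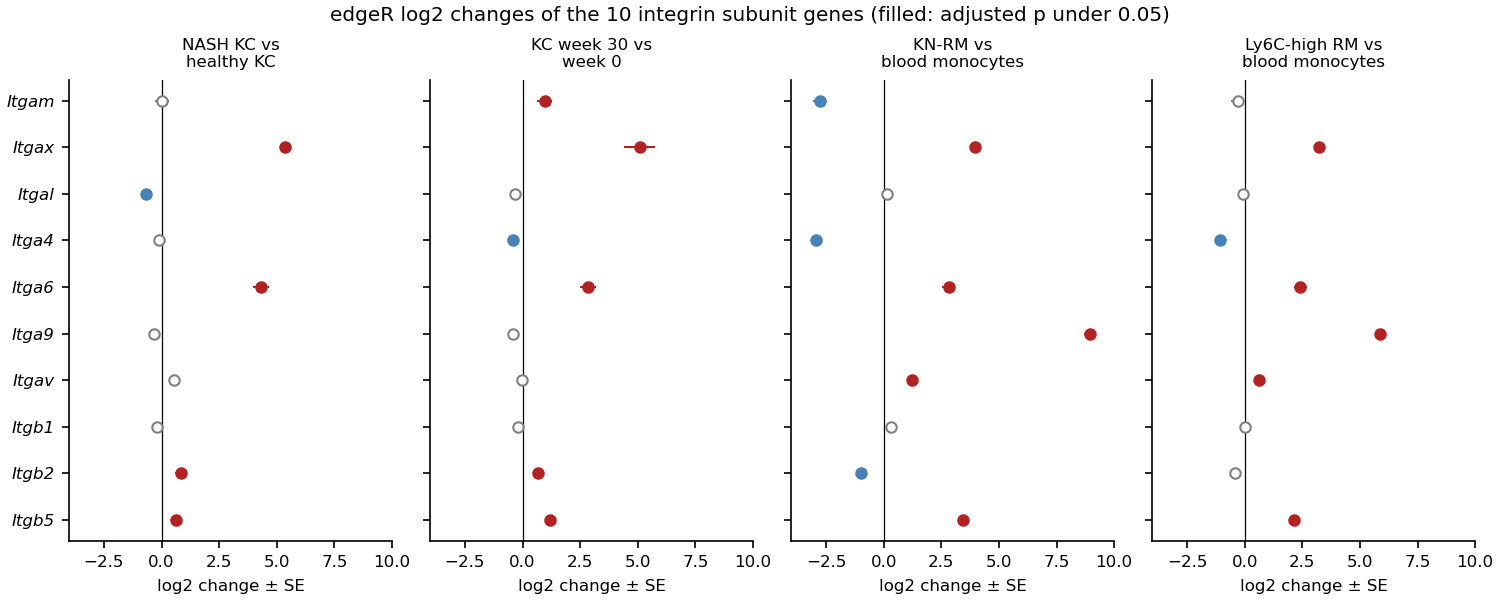
Log2 change (± SE) of each integrin gene in 4 contrasts: NASH KC against healthy KC, KC at week 30 against week 0, KN-RM against blood monocytes and Ly6C-high RM against blood monocytes. Filled points have an adjusted p under 0.05, red where higher and blue where lower. Itgax, Itga6 and Itgb5 are called higher in all 4.

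Levels were set between genes only in TPM, which allows for transcript length. Among the alpha subunits that pair with Itgb2, Itgal was the most abundant in Kupffer cells: of the summed TPM of Itgal, Itgam, Itgax and Itgad, it made 66.8 ± 6.16% in NASH KC and 91.5 ± 0.490% in healthy KC (SD, n = 2 each). Itgax made 23.9 ± 3.77% in NASH KC and 0.509% in healthy KC, 28.3% in KN-RM and 51.6 ± 2.02% in Ly6C-low RM, where it was the largest of the 4. In blood monocytes Itgam was the largest, at 53.0%, and Itgax made 1.46%. In the time course the mean Itgax share was 1.16% at week 0, 2.84% at week 1, 2.23% at week 4, 4.98% at week 10, 25.2% at week 20 and 31.6% at week 30. KN-RM and NASH KC overlapped in their Itgal and Itgam shares, and differences in shares were not tested. A share of RNA says nothing of the protein pairs at the surface.

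Among the 3 beta subunits, Itgb2 made 77.7% of their summed TPM in blood monocytes and Itgb5 made 5.49%. Itgb5 made 50.2% in KN-RM, 46.2% in NASH KC and 42.9% in healthy KC, and Itgb1 made 16.1% in NASH KC and 26.3% in healthy KC. A share moves when any of its members moves, so the tests stand with the CPM values above.

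**Figure D4:**
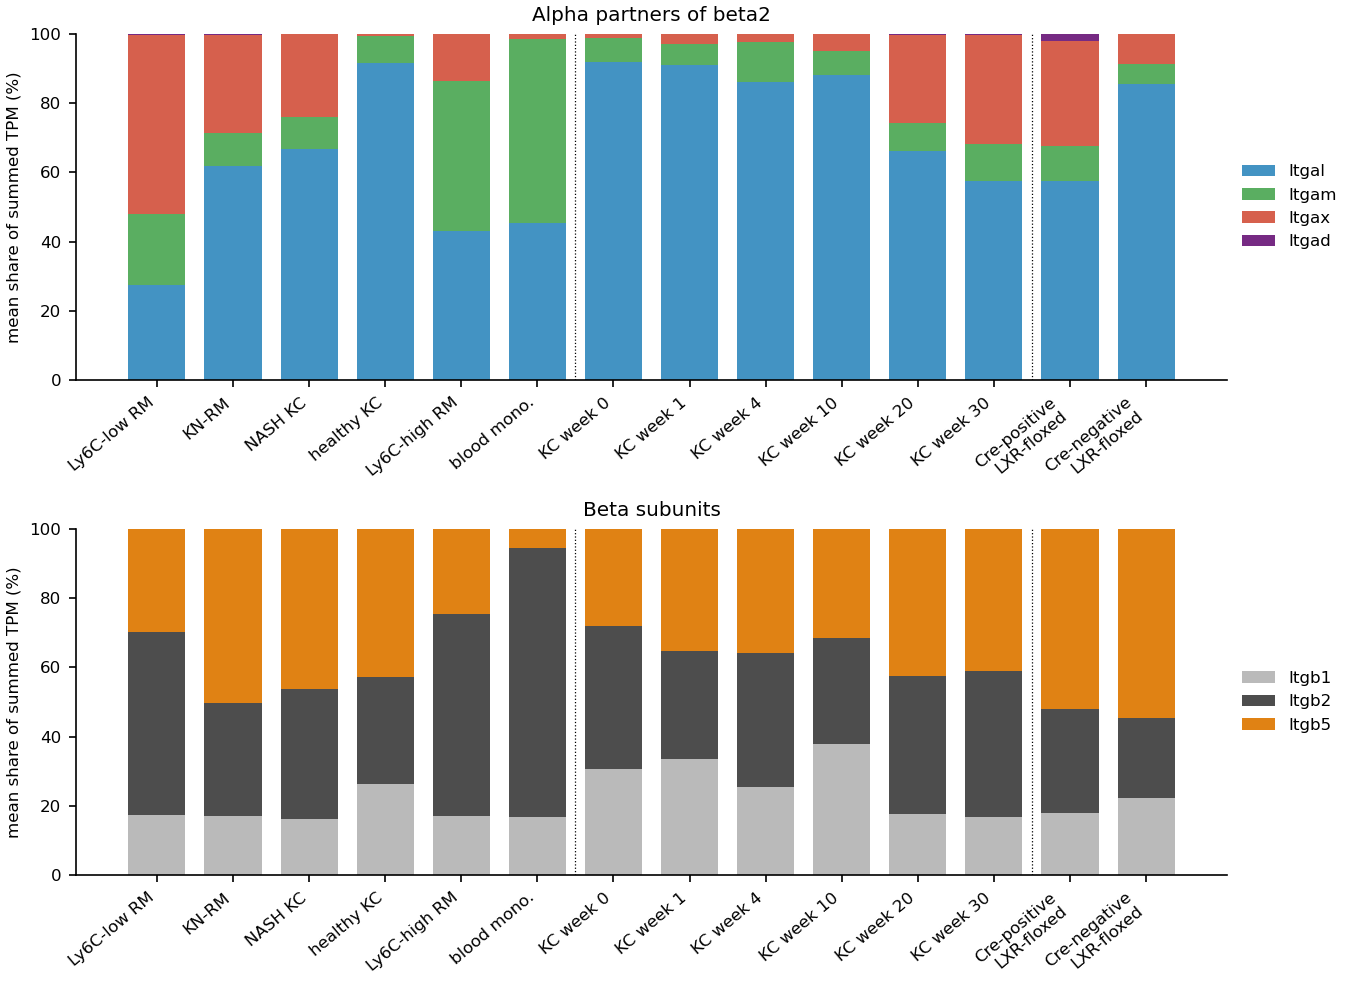
Mean share (percent of summed TPM) of the 4 alpha subunits that pair with Itgb2 (above) and of Itgb1, Itgb2 and Itgb5 (below) in each sorted group. Itgax makes 0.509% of the alpha total in healthy KC and 51.6% in Ly6C-low RM.

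The order of the groups differed from gene to gene. For Itgax the highest group was Ly6C-low RM (568 and 789 TPM), above labelled Cre-positive KN-RM (170 to 312 TPM), week 30 KC (123 to 220 TPM), KN-RM (157 and 174 TPM), week 20 KC (84.8 to 183 TPM), Ly6C-high RM (107 and 131 TPM) and NASH KC (94.6 and 130 TPM), and healthy KC was lowest (3.14 and 3.17 TPM). From Cre-positive KN-RM down to NASH KC each neighbouring pair overlapped, so that part of the order is not resolved. For Itgam, blood monocytes were highest (418 and 489 TPM), then Ly6C-high RM (361 and 398 TPM) and Ly6C-low RM (237 and 302 TPM), and no other sorted group passed 122 TPM in any library. For Itga9, blood monocytes were lowest, at 0.274 and 0.219 TPM. These levels cross 4 separately prepared sets and are a description.

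By Pearson's r of the group mean log2 CPM over the 14 sorted groups, among 16000 genes, the genes whose pattern was most like that of Itgax were Prag1 (r = 0.964), Slamf7 (0.963) and Ciita (0.955). For Itgam, whose pattern was set in part by the CD11b gate, they were Abca7 (0.974), St3gal2 (0.969) and Map3k6 (0.966). For Itga9 they were Mertk (0.996), Enpp1 (0.993) and Snx24 (0.992), and for Itga6 Kcnn4 (0.946), Tmem119 (0.936) and Rasal3 (0.931). The groups share cell types and library sets, so the r values describe these groups only.

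LXR-alpha and LXR-beta are nuclear receptors for oxysterols, and their floxed alleles with Clec4f-cre were used to ask what KN-RM need them for. The gene-level counts did not show the deletion: Nr1h3 (LXR-alpha) had 186, 449 and 297 CPM in the libraries labelled Cre-positive, against 245, 281 and 305 CPM in Cre-negative ones. Nr1h2 (LXR-beta) had 60.8, 82.1 and 64.2 CPM in the libraries labelled Cre-positive, against 50.9, 33.1 and 36.4 CPM in Cre-negative ones. Counts over a whole transcript include exons outside a deleted part, so neither label is checked by them.

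In this set 0 of the 10 integrin genes were called by edgeR (0.209% of all 11480 genes, 0.174% higher and 0.0348% lower). Of the 10, 3 had an unadjusted p under 0.05, beside 947 of all 11480 genes. DESeq2 called those 3, and limma on the TPM scale called 0. Itgax had 548, 372 and 647 CPM in the libraries labelled Cre-positive, against 215, 125 and 190 CPM in Cre-negative ones (log2 1.56 ± 0.27, adjusted p = 0.0530 in edgeR and 3.52e-06 in DESeq2). Itga6 had 47.3, 12 and 31.1 CPM in the libraries labelled Cre-positive, against 4.21, 5.68 and 6.96 CPM in Cre-negative ones (log2 2.39 ± 0.48, adjusted p = 0.0838 in edgeR and 0.000446 in DESeq2). Itgal had 896, 1508 and 1569 CPM in the libraries labelled Cre-positive, against 2097, 3014 and 2153 CPM in Cre-negative ones (log2 -0.87 ± 0.27, adjusted p = 0.280 in edgeR and 0.0439 in DESeq2). The groups of each stood apart, though edgeR did not call them. How many of all genes stand apart between such small groups was not counted. Itga4 also stood apart by little, with 714, 552 and 709 CPM in the libraries labelled Cre-positive and 1086, 730 and 764 CPM in Cre-negative ones (log2 -0.39, adjusted p = 0.759). For the other 6, Itgam, Itga9, Itgav, Itgb1, Itgb2 and Itgb5, the groups overlapped. Of the summed TPM of the Itgb2 partners, Itgax made 30.4 ± 9.08% in the libraries labelled Cre-positive, against 8.56 ± 3.41% in Cre-negative ones, and Itgal made 57.6 ± 8.12% against 85.5 ± 1.65% (SD, n = 3 each).

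Replicate 2 labelled Cre-positive stood apart in Timd4, at 303 CPM, against 17.1 and 93.8 CPM in the other two and 3.51 to 16.3 CPM in the Cre-negative libraries. It was also the lowest of its group in Itgax and Itga6. Without it, edgeR called 2 of the 10, Itgax (log2 1.77, adjusted p = 0.0132) and Itga6 (2.79, adjusted p = 0.00781). Summed markers of Ly6C-high monocytes were 204 to 263 CPM in the libraries labelled Cre-positive, against 75.7 to 93.5 CPM in Cre-negative ones, where Ly6c2 and Chil3 were at 0. Of the 7 listed, 4 were tested, with 1 called higher and 0 lower. Kupffer-cell markers summed to 2117 to 9352 CPM in the libraries labelled Cre-positive and 3517 to 4692 CPM in Cre-negative ones, with 0 of 7 called. The part of these markers in the integrin values was not tested.

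In whole liver, macrophages are a small part of the tissue, and Itgb1, which many cell types carry, was the most abundant of the 10 per length (69.2 ± 14.7 TPM in DTR-positive livers; SD, n = 12). By edgeR 0 of the 10 were called between DTR-positive and DTR-negative liver, by DESeq2 also 0, and 0 of the 10 had an unadjusted p under 0.05. Of all 12682 genes 0.0% were called, and 477 had an unadjusted p under 0.05. Itgb1 ranged from 190 to 256 CPM with a median of 233 in DTR-positive livers, and from 208 to 243 CPM with a median of 230 in DTR-negative livers. Itgax ranged from 1.48 to 53.4 CPM with a median of 36.0 in DTR-positive livers, and from 3.31 to 47.6 CPM with a median of 34.1 in DTR-negative livers. The ranges of both genes overlapped, and the 10 log2 differences lay between -0.01 and 0.33.

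A few whole-liver libraries stood far below the rest of their group in the Itgb2 family. Itgax had 1.48, 2.09 and 3.12 CPM in DTR-positive replicates 2, 7 and 1, and 3.31 CPM in DTR-negative replicate 2. The next lowest libraries had 31.4 CPM among DTR-positive and 18.5 CPM among DTR-negative livers. The same 4 libraries were the lowest in Itgam, at 3.75 to 5.06 CPM, and in Itgb2, at 15.8 to 25.8 CPM. The labels do not set them apart, and they were kept, since they are known only by the values compared.

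**Figure D5:**
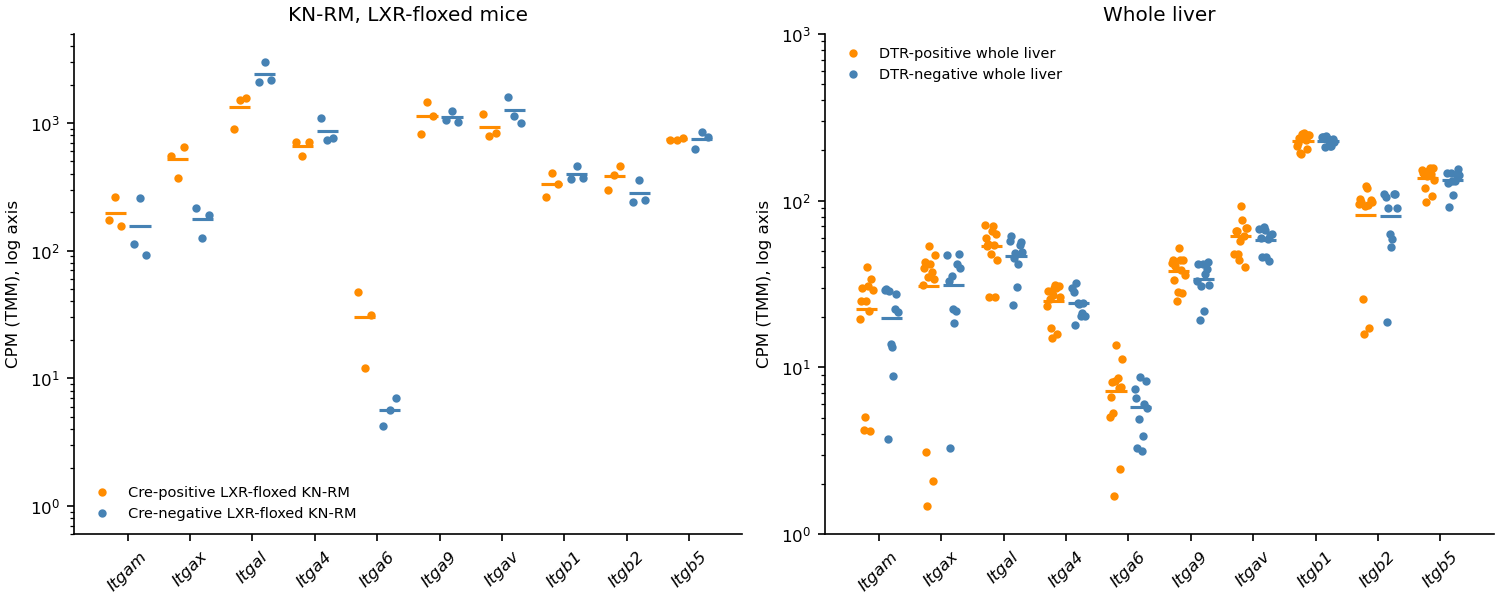
CPM after TMM scaling (log axis) of the 10 integrin genes in KN-RM labelled Cre-positive and Cre-negative for the LXR-floxed mice (3 libraries each) and in DTR-positive (12 libraries) and DTR-negative (10 libraries) whole liver; points are libraries and lines are means. Itgax, Itga6, Itgal and Itga4 do not overlap between the small LXR groups, where edgeR called 0 of the 10. The share of all genes that do not overlap there was not counted. All 10 genes overlap between the larger whole-liver groups.

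The rest of the adhesion system was followed in 3 lists: 17 other integrin subunits, 27 integrin ligands and 30 activators and adaptors inside the cell. In NASH KC against healthy KC, 3 of 16 tested other subunits were higher and 2 lower, 6 of 25 ligands were higher and 0 lower, and 2 of 30 activators and adaptors were higher and 5 lower. The list medians were log2 0.73, 0.26 and 0.02, beside 0.00 over all genes, of which 11.2% were called higher and 9.56% lower. Spp1, which encodes osteopontin, a ligand of Itga9 and Itgav receptors, averaged 142 ± 105 CPM in NASH KC, against 0.545 ± 0.0324 CPM in healthy KC (log2 8.0 ± 0.83, adjusted p = 0.000101). Spp1 is also a cholangiocyte gene, and the summed cholangiocyte list that holds it was 70.8 to 220 CPM in NASH KC, against 1.39 to 1.42 CPM in healthy KC. Spp1 itself made most of the NASH KC sum, so the sum does not measure cholangiocyte RNA apart from Spp1. Of the 5 listed genes 3 were called higher, Spp1 among them. Itgad, the remaining Itgb2 partner, averaged 3.16 CPM in NASH KC, against 0.508 CPM in healthy KC (log2 2.61, adjusted p = 0.0265). Itgad thus rose to a level far under that of Itgax.

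At week 30 against week 0, 3 of 14 other subunits, 9 of 25 ligands and 8 of 29 activators and adaptors were higher, and 1, 3 and 6 were lower. The medians were log2 0.84, 1.02 and 0.13, beside 0.00 over all genes, of which 15.5% were called higher and 15.0% lower. Itga5, the fibronectin receptor chain, averaged 165 ± 8.45 CPM at week 30, against 67.8 ± 13.9 CPM at week 0 (log2 1.28 ± 0.24, adjusted p = 0.000862). Spp1 averaged 186 ± 90.9 CPM at week 30, against 5.70 ± 6.31 CPM at week 0 (log2 5.04 ± 0.75, adjusted p = 0.000123). Parvg, an adaptor between integrins and actin in blood cells, was higher (log2 1.19 ± 0.17, adjusted p = 0.000104), and Rap1a, a small GTPase of integrin activation, was lower (-1.08 ± 0.11, adjusted p = 4.28e-06).

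In KN-RM against blood monocytes, 7 of 16 other subunits were higher and 3 lower, 20 of 25 ligands were higher and 3 lower, and 10 of 30 activators and adaptors were higher and 14 lower. The ligand median was log2 4.76, beside 0.09 over all genes, of which 34.0% were called higher and 26.5% lower. In the same contrast 7 of 7 hepatocyte, 8 of 8 stellate-cell and 8 of 8 endothelial markers were higher in KN-RM, and their part in the ligand levels was not tested. Itgb7, the other beta partner of Itga4, averaged 39.2 ± 1.69 CPM in KN-RM, against 593 ± 143 CPM in blood monocytes (log2 -3.92 ± 0.23, adjusted p = 1.03e-07). Both chains of that receptor were thus lower in KN-RM. Vcl (vinculin), which ties integrins to actin, was lower (log2 -3.81 ± 0.23), and the kinase gene Src was higher (5.33 ± 0.34).

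In Ly6C-low RM against Ly6C-high RM, 2 of 16 other subunits were higher and 2 lower, 3 of 25 ligands were higher and 13 lower, and 2 of 30 activators and adaptors were higher and 6 lower. Over all genes, 11.6% were called higher and 14% lower. The ligand median was log2 -1.10, beside -0.03 over all genes. Beside it, 7 of 7 hepatocyte markers were lower (summed 149 to 337 CPM in Ly6C-low RM, against 1393 to 3742 CPM in Ly6C-high RM), as were 5 of 8 endothelial markers, and their part in the ligand levels was not tested. Fn1 (fibronectin), a ligand of Itga4 and Itga5 receptors, averaged 1199 ± 341 CPM in Ly6C-low RM, against 9116 ± 1427 CPM in Ly6C-high RM (log2 -2.93 ± 0.38, adjusted p = 0.000376). Against KN-RM, Vcam1, the other main ligand of Itga4 with Itgb1, averaged 82.0 ± 17.5 CPM in Ly6C-low RM, against 522 ± 4.43 CPM in KN-RM (log2 -2.67 ± 0.24, adjusted p = 1.42e-05). In KN-RM against NASH KC, 1 of 25 ligands was called and 0 of the other 2 lists. In the LXR and whole-liver sets, 0 genes of the 3 lists were called by edgeR.

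Some counts carry limits of annotation. Exons of Itgam overlap the same-strand gene Gm49368 over 3450 bases, and those of Itga4 and Itgav overlap opposite-strand Cerkl (1124 bases) and Gm13684 (634 bases). The strand setting of the counting is not given in the sources used here, so reads in those stretches are uncertain.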

How the data were processed

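Sorted macrophages and monocytes, and whole liver, were analysed from the authors' deposited tables, which give raw counts and TPM per RefSeq transcript. Per the file headers, the authors counted exon reads over mm10 RefSeq transcripts with HOMER's analyzeRepeats.pl, once as raw counts and once as TPM; the submitters' processing notes also name STAR, DESeq2 and GRCm38. Where a gene had several transcripts (7630 of 24941 genes, from 40458 transcripts), the one with the highest total count was kept, and the other Itga9 transcript held 66.8% of the kept one's total.

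Counts were filtered with filterByExpr (lowest count 10, lowest total 15), scaled by TMM and fitted with edgeR 4.0.16 (glmQLFit, glmQLFTest; R 4.3.3), 1 fit per set with all its groups (14407, 14552, 11480 and 12682 genes). The SE is the log2 change divided by the square root of F. P-values were adjusted by Benjamini-Hochberg over all genes of a fit and called below 0.05. The alternatives were DESeq2 1.42.0, limma 3.58.1 on log2(TPM + 1) or log2(TPM + 0.1) of genes with a mean TPM of at least 1 or without that filter, other size factors, no count filter, the longest transcript, a replicate block, the 2 groups alone and each library left out. Tables were handled with Python 3.11.15, pandas 2.3.3 and numpy 2.4.6, and the tests were tested on simulated data.

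The 10 members were tested in each comparison, and those not named in one missed its call. Genes of the 3 pathway lists could be named when called with a log2 change of at least 1, up to 6 per list. Members and lists were chosen with earlier results of these data known. All 140 pairs of libraries within a group differed by more than counting noise, with chi-square per degree of freedom of 5.03 to 79.9. That does not show that they came from separate mice. Promoter sequences are from RefSeq (GRCm38.p6), with windows for 7 of the 10.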

Additional observations from a re-analysis of the deposited data

Results flagged for a closer look

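The diet effect in Kupffer cells differed between week 20 and week 10 in 6 of the 10 integrin genes, by edgeR's test of week 20 against week 10, in which the shared week 0 libraries drop out. The diet effect at week 20 minus that at week 10 was 2.90 on the log2 scale for Itgax (4.80 at week 20 and 1.90 at week 10), 1.19 for Itga6, 0.97 for Itgb2 (0.58 at week 20 and -0.39 at week 10) and 1.02 for Itgb5. It was -0.51 for Itgb1 (-0.16 at week 20 and 0.35 at week 10) and -0.44 for Itga4. The contrast was chosen after the values had been seen, and the libraries of a week share what was particular to their harvest, which cannot be told apart from time on the diet. Dixon's test for a single outlying library set 0 libraries apart in 20 combinations of gene and group, the 10 genes in week 30 KC and in DTR-negative livers. The low Itgax of DTR-negative replicate 2 did not pass it, and the 12 DTR-positive livers were too many for that test.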

How the results depend on the processing

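No integrin gene changed direction while called. Of 1240 log2 changes under another setting, 1151 kept their side of the threshold, 34 lost the call and 55 gained it; leaving out each library in turn gave 597, 43 and 10 of 650. Leaving out 1 library of a pair assumes that the lone one varies like the other groups. Members called then numbered 2 to 4 in NASH KC against healthy KC (5 with all libraries), 0 to 1 at week 1 (0), 0 to 1 at week 4 (1), 0 to 2 at week 10 (2), 2 in Ly6C-low against Ly6C-high RM (3) and 0 to 2 in the LXR set (0). With no filter on low counts, 2 were called in KN-RM against NASH KC, 5 in Ly6C-low against Ly6C-high RM, 1 at week 10 and 2 in the LXR set. DESeq2 called 2 in KN-RM against NASH KC, 5 in Ly6C-low against Ly6C-high RM, 1 at week 1, 2 at week 4 and 3 in the LXR set. Limma on log2(TPM + 1) called 3 at week 1, 0 at week 4 and 1 at week 10; on log2(TPM + 0.1) it called the same numbers and 3 in NASH KC, and on log2(TPM + 1) with no filter 2 at week 1, 0 at week 4, 1 at week 10 and 3 in NASH KC. With the 2 groups alone, 6 were called in Ly6C-low against Ly6C-high RM, 0 at week 4 and 0 at week 10; with the longest transcript, 0 at week 4.

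The labels give no shared source for libraries of the same replicate number. In no comparison with 3 or more shared numbers did every pair correlate above 0.1 (r -0.39 to 0.78). In the population set, with 2 libraries per group, both pairs share 1 value of r. It was 0.494 for KN-RM and NASH KC, 0.437 for Ly6C-low RM and KN-RM, 0.350 for Ly6C-low and Ly6C-high RM, and 0.113 for NASH and healthy KC. Against blood monocytes it was -0.0128 for KN-RM and -0.0700 for Ly6C-high RM. The main fits take no account of pairing. With the replicate block, 1 member was called in KN-RM against NASH KC, 5 in Ly6C-low against Ly6C-high RM, 1 at week 10 and 1 in the LXR set. At week 30 the block ended the calls on Itgam and Itga4 (adjusted p = 0.0837 and 0.0512).

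TPM is not rescaled between libraries, and on that scale the median log2 change of all genes moved to -0.18 in NASH KC against healthy KC, -0.21 in KN-RM against blood, 0.26 in Ly6C-low RM against KN-RM, 0.11 in KN-RM against NASH KC, -0.18 at week 20 against week 10, and -0.21, -0.15, -0.25 and -0.28 at weeks 1, 4, 20 and 30 against week 0. Limma then called 925 genes higher and 2714 lower in NASH KC (edgeR 1611 and 1377), 2963 and 4925 in KN-RM against blood (4897 and 3812), 4303 and 1445 in Ly6C-low RM against KN-RM (2202 and 2602), 717 and 2149 at week 1 (1371 and 954), 521 and 1217 at week 4 (808 and 435), 1221 and 4173 at week 20 (2645 and 2410), 1001 and 4472 at week 30 (2255 and 2182), 1125 and 1387 at week 10 (1675 and 1111), 1844 and 3943 at week 20 against week 10 (2975 and 3011) and 50 and 16 in KN-RM against NASH KC (48 and 29; DESeq2 120 and 139). The LXR set has the lowest depth and the widest spread between replicates (biological coefficient of variation 0.289).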
